A study of Mus musculus with 3 samples.

Results

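CpG island promoters shared by several genes are regions bound in the chromatin immunoprecipitation (ChIP) that lie on a CpG island and close to the starts of neighbouring genes. Regions were chosen by the deposited annotation alone: at least 1 CpG island was assigned to the region, and at least 2 of its genes had a start within 1000 bp of its middle. The rule was met by 816 of the 37271 deposited regions (2.19%), which is 14.8% of the 5512 CpG island regions with any start within 1000 bp. No signal value entered the rule. Of the 816 regions, 798 had 2 genes and 18 had 3, and 795 were assigned a single CpG island while 21 were assigned 2. They lay on all 20 chromosomes in the table and carried 1577 distinct gene names, of which 1405 (89.1%) matched a RefSeq gene. In 4 regions all names matched the same RefSeq gene, so these are shared by name only, and 651 regions (79.8%) held at least 2 different RefSeq genes.

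The protein measured was Nkx2.2, a homeodomain transcription factor, in oligodendrocyte progenitor cells (OPC) and in oligodendrocytes (OL) made from them. The progenitors were cortical cells of postnatal day 7 mice (strain C57BL/6), selected with an anti-PDGFRA antibody and grown with PDGF-AA (10 ng/mL), NT-3 (1 ng/mL) and CNTF (10 ng/mL). OL were made from such cultures by withdrawal of PDGF-AA and 48 h of T3, a thyroid hormone, at 40 ng/mL. Each state had 1 ChIP library from 1.5e7 cells, made with monoclonal antibody 74.5A5-b, and no genotype or allele other than the strain was listed. All cells were isolated together and expanded in a common set of flasks, and the OL dishes were seeded more densely than the OPC dishes, so state and seeding density cannot be told apart. Neither state was replicated, and every difference between the libraries is therefore given as values, without a test or a p-value. The input library was not analysed here, and ChIP signal does not report expression, so the labelled cell states could not be checked against their markers.

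Nkx2.2 is needed for the timely maturation of oligodendrocytes and acts in part as a repressor through Groucho corepressors, and members of its NK2 family bind sites with the core AAGTG. Neighbouring genes on opposite strands often start from the same CpG island and are then called divergent, or bidirectional, pairs. Such promoters are typically active in most cell types, lack a TATA box, and serve genes of DNA repair, mitochondria, RNA processing and translation.

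The promoters below belong to 6 divergent pairs at the ends of the signal range, namely regions with the highest signal or the largest ratios either way, and a pair from the literature. They run from 250 bases before to 50 after a gene's start in RefSeq (GRCm38.p6), so that the start is base 251, and each is written 5′ to 3′ along the gene named. Arfip2 lies at chr7:105640367-105640666 on the minus strand. On the plus strand lie Sirt2 at chr7:28766502-28766801, Bcs1l at chr1:74588039-74588338, Nudt2 at chr4:41464898-41465197, Nthl1 at chr17:24632432-24632731 and Tprkb at chr6:85915469-85915768. Capitals mark matches on either strand to AAGTG (the NK2 core), GGGCGG (the GC box), CCAAT and CCGGAAG (the core bound by ETS factors).
Arfip2: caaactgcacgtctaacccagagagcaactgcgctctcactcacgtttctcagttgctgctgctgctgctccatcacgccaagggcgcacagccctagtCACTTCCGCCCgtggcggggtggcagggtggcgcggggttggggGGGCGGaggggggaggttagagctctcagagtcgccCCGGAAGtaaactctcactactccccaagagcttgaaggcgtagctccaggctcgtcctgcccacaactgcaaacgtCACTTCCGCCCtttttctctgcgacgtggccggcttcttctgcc
Sirt2: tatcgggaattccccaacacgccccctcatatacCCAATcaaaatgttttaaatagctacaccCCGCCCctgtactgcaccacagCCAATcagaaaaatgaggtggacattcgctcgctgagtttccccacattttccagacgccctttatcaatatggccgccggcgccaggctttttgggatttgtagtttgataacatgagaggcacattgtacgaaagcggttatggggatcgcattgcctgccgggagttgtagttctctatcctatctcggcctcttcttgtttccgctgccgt
Bcs1l: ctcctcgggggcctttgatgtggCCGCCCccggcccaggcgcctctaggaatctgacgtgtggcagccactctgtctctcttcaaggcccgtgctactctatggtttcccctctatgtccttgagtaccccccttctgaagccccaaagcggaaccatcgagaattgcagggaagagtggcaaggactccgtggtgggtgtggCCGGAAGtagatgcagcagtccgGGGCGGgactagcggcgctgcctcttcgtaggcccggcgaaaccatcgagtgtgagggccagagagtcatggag
Nudt2: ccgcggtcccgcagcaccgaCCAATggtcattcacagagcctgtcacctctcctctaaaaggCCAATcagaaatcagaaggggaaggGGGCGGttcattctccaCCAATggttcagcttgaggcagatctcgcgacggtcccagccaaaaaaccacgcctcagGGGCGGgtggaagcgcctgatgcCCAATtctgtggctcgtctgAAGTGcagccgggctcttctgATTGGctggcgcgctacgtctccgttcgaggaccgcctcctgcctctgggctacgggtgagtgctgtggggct
Nthl1: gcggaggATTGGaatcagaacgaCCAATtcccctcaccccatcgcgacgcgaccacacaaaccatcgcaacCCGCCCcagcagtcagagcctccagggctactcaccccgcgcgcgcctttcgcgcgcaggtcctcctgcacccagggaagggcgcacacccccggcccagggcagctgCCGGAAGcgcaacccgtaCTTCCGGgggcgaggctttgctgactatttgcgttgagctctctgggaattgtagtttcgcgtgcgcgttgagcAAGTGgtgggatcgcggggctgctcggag
Tprkb: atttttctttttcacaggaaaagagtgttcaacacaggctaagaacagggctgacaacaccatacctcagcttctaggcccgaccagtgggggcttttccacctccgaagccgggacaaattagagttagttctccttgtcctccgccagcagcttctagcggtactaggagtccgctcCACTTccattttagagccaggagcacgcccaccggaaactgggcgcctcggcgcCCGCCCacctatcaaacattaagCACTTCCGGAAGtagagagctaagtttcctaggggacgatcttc

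In RefSeq the start of Timm10b (deposited as Fxc1), the divergent partner of Arfip2, falls at base 222 of the Arfip2 sequence, only 29 bp from the Arfip2 start. Partner starts fall at base 143 for Sirt2 (Nfkbib), base 196 for Nthl1 (Tsc2) and base 164 for Tprkb (Nat8f1, deposited as Cml1), while those of Bcs1l (Zfp142) and Nudt2 (Kif24) lie 261 and 300 bp away, outside the windows. Deposited spacings were 193 bp for Arfip2, 259 for Sirt2, 333 for Bcs1l, 308 for Nudt2, 81 for Nthl1 and 96 for Tprkb. The starts used to choose the regions can therefore differ from those in these windows. The Arfip2 sequence holds the NK2 core at bases 100 to 104 and 257 to 261, each directly followed by a GC box at 105 and 262. The Tprkb sequence holds it at 180 to 184 and 257 to 261, where the second match overlaps ETS matches at 259 to 265 and 262 to 268. Nudt2 has 5 CCAAT matches and 1 NK2 core at 207 to 211, and Nthl1 has 1 NK2 core at 272 to 276 and an ETS match on each strand. The Sirt2 and Bcs1l windows held no AAGTG, which says only that these letters are absent from these 300 bases.

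The members were mostly head-to-head pairs. Strand was taken from the deposited distances of genes with several regions, and otherwise from RefSeq. Both starts could be oriented in 652 of the 798 regions with 2 genes: 534 were divergent (81.9%, 95% interval 78.7 to 84.8, Clopper-Pearson, counting error only), 80 had opposite strands with overlapping starts, and 38 lay on the same strand. Where both genes carried a name other than a placeholder such as a Riken or LOC number, 331 of 361 oriented pairs were divergent (91.7%). Divergent starts were a median of 256.5 bp apart (quartiles 147 and 450, range 12 to 1493), with 304 pairs closer than 300 bp and 71 closer than 100 bp. In the overlapping pairs the transcribed parts overlapped by a median of 334.5 bp, between 16 and 1112 bp.

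**Figure D1:**
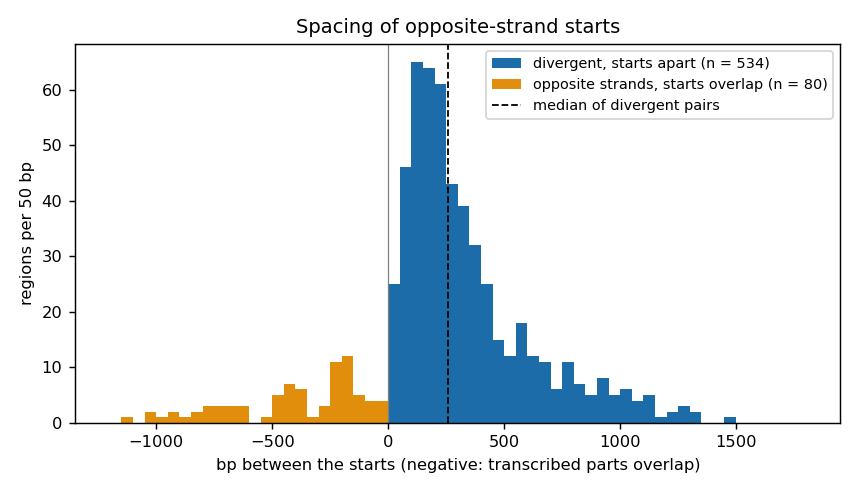
Distance in bp between the starts of opposite-strand genes at shared CpG island promoters (x axis) against the number of regions per 50 bp (y axis), for divergent pairs (n = 534) and pairs whose transcribed parts overlap (n = 80, negative values). Most divergent pairs lie below 500 bp, and the dashed line marks their median of 256.5 bp.

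Most of the bound regions covered the shared starts. The rule already required at least 2 starts within 1000 bp of a region's middle, so closeness to starts follows in part from it. The values below only describe where regions lay within that limit. A region's middle was a median of 94 bp from the nearest start, against 139 bp in the 4696 CpG island promoters of a single gene, which had 1 chance of a near start where members had at least 2. In the divergent pairs the middle lay between both starts in 335 regions (62.7%), and 274 middles (51.3%) were within 100 bp of the point halfway between them. The region itself covered both starts in 380 divergent pairs (71.2%). Over all members, 536 regions covered at least 2 starts, 209 covered 1 and 71 covered none. The starts of the deposited annotation and RefSeq are not the same: the 2 spacings agreed within 50 bp for 200 of the 424 divergent pairs found in both, with a median difference of 57 bp.

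RefSeq held 1440 promoters for 1167 genes of these regions, counting alternative starts, and promoters of a pair can overlap. Their GC content had a median of 62.7% and they held a median of 24 CpG dinucleotides, against 62.0% and 23 for single-gene CpG island promoters and 52.7% and 7 for all 32851 RefSeq promoters. The long NK2 motif TNAAGTGG was in 2.64% of the members' promoters, 2.73% of the single-gene set and 3.21% of all. Its core AAGTG was in 45.1%, 41.5% and 46.4%. Neither stood above the share in all promoters.

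Letters of other promoter factors ranged widely in their share. The ETS core CCGGAAG was in 29.2% of the members' promoters (interval 26.8 to 31.6), 20.5% of the single-gene set (19.3 to 21.7) and 8.86% of all promoters. GGGCGG was in 68.3%, 68.8% and 35.7%, and the NRF1 motif in 13.3%, 11.6% and 4.60%. CCAAT was in 40.8%, 40.7% and 37.4%, the cyclic AMP response element TGACGTCA in 4.58%, 3.37% and 1.79%, and the YY1 motif in 3.06%, 1.70% and 0.633%. The TATA letters TATAAA were rarer than over all promoters, at 5.49%, 5.96% and 13.6%. Among the members, promoters of regions above the upper quartile of mean signal held CCAAT in 48.8% (43.8 to 53.9) and those below the lower quartile in 34.0% (29.0 to 39.3). GC content went the other way, with medians of 60.7% and 65.7%. TNAAGTGG was in 1.54% and 1.48% of these promoters, its core AAGTG in 45.0% (40.0 to 50.1) and 40.5% (35.3 to 46.0), and the ETS core in 32.1% (27.5 to 37.0) and 25.7% (21.2 to 30.7). GGGCGG was in 70.7% and 68.6%. The other motifs were in a smaller share of the high-signal promoters: the NRF1 motif in 10.3% and 14.5%, the YY1 motif in 1.54% and 3.85%, TGACGTCA in 2.31% and 3.25%, and TATAAA in 4.63% and 7.10%. Alternative starts and the 2 promoters of a pair can hold the same match, so promoters are not independent. The motif intervals are therefore too narrow, and they do not set any motif apart. All these shares are matches of letters on both strands, read as a description, and base composition differs between the sets compared.

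The authors called intervals in each library separately. Of the 816 regions, 356 (43.6%, interval 40.2 to 47.1) were called in OPC, where 38.6% of all regions were. In OL 793 regions (97.2%, 95.8 to 98.2) were called, beside 85.3% of all regions. Both libraries called 333 (40.8%, 37.4 to 44.3), beside 23.8%. OL alone called 460 (56.4%), beside 61.4%, and OPC alone called 23 (2.82%, 1.79 to 4.20), beside 14.7%. The single-gene CpG island promoters had OPC calls in 38.9% (37.5 to 40.3), OL calls in 94.2% (93.5 to 94.8) and calls in both libraries in 33.1% (31.7 to 34.4). Promoters without a CpG island (1102 regions) had 45.6%, 84.5% and 30.1%. Members were longer, with a median of 717.5 bp against 656.5 bp for single-gene CpG island promoters and 574 bp for all regions. Within lengths under 500 bp, from 500 to under 800 bp and from 800 bp, calls in both libraries covered 4.30%, 36.9% and 58.5% of the members and 6.30%, 32.6% and 56.0% of the single-gene set. The part that length plays in the pooled difference was not tested.

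Signal at the shared promoters was moderate in both libraries. Values are the authors' average signal over a region, in their signal units, and sequencing depth is unknown. The median was 3.68 in OPC (quartiles 2.74 and 4.79, highest 15.3) and 5.70 in OL (4.63 and 7.07, highest 21.4), and over all regions it was 3.00 and 5.0. Only 51 members (6.25%) were among the top 10% of all regions in OPC, which starts at 6.70 signal units, and 55 (6.74%) in OL, which starts at 9.75. The best member ranked 411 of all regions in OPC and 340 in OL. An average of 10 or more was reached by 10 members in OPC and 52 in OL.

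The ratio of the libraries, log2((OL + 1) / (OPC + 1)), had a median of 0.58 over the members (interval 0.54 to 0.62, quartiles 0.29 and 0.86). How the libraries were scaled to each other is not stated. The median ratio was 0.74 over all regions and 0.24 over all regions called in both libraries, so the members sit 0.16 below the former (-0.16) and 0.33 above the latter, and their direction flips with the scaling. On the deposited scale 740 members had a ratio above 0, 640 lay above the median of regions called in both, and 297 lay above the median of all regions. Single-gene CpG island promoters had a median of 0.61, and promoters without an island 0.54. By call, the members had medians of 0.34 where called in both, 0.76 where called in OL alone and -0.37 where called in OPC alone, and the same classes of all regions had 0.24, 1.12 and -0.90.

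The members' ratios were narrow. Ratios of 1 or more, at least a doubling on the log2(signal + 1) scale, were found in 135 members (16.5%), beside 37.5% of all regions, 19.7% of single-gene CpG island promoters and 22.6% of promoters without an island. A ratio of -1 or less was found in 2 members (0.245%), beside 7.03%, 0.873% and 5.35%. The standard deviation of the ratio was 0.458 over the members, 0.538 over single-gene CpG island promoters and 1.05 over all regions. The log2 signals of the 2 libraries had a Pearson correlation of 0.51 over the 816 members, 0.37 over single-gene CpG island promoters and 0.06 over all regions. These describe regions of the same libraries, which are not replicates, and a region enters the table only if called in at least 1 library.

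**Figure D2:**
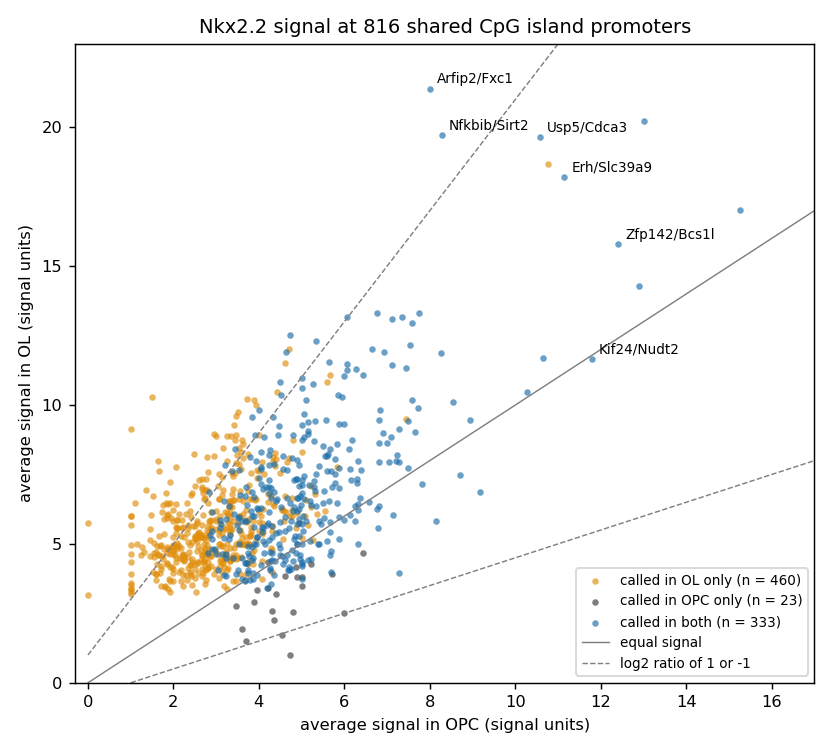
Average Nkx2.2 ChIP signal in OPC (x axis) and OL (y axis), in signal units, at the 816 shared CpG island promoters, 1 point per region, coloured by the library in which the authors called an interval. Most points lie between 2 and 8 units in OPC and above the line of equal signal on the deposited scale, while with the median of all regions set to 0 only 297 would have a ratio above 0.

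**Figure D3:**
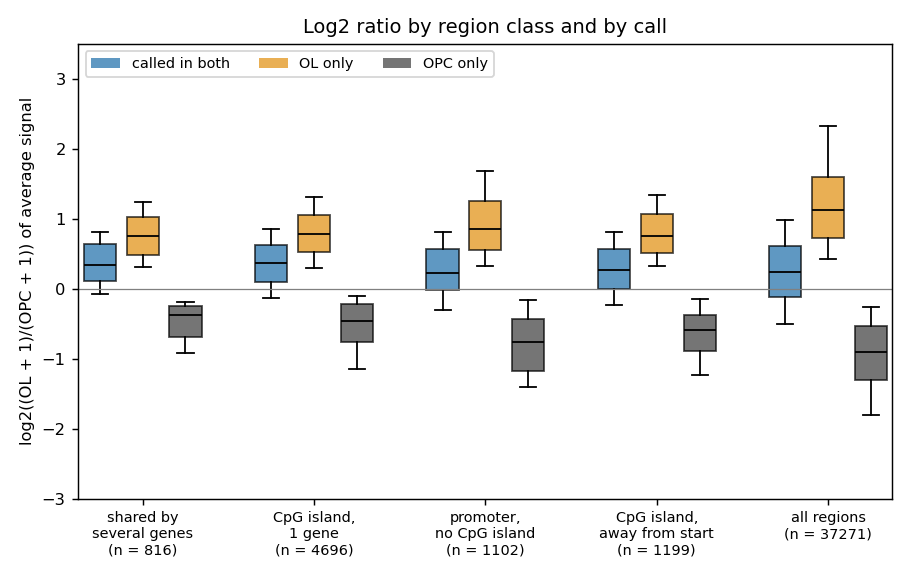
Log2 ratio of OL to OPC signal (y axis) in 5 sets of regions, split by call. Boxes show the median and quartiles and whiskers the 10th and 90th percentiles of regions on the deposited scale. Members called in OL alone have a median of 0.76, below the 1.12 of all regions with that call.

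A call and a signal level are not the same thing. The 460 members not called in OPC had a median OPC signal of 2.84, and 18 of them were at or above 4.85, the median of the members that were called. The highest was 6430706D22Rik (now Hjurp) with LOC100038822 at 10.8, a region called in OL alone at 18.7. In 2 of the 23 members called in OPC alone the OL signal was the higher on the deposited scale: Ncbp2/0610012G03Rik had 4.94 and 5.77, and Tyw3/Cryz had 4.21 and 4.35, and both fall below 0 with the median of all regions set to 0.

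Medians differed little between orientations. Divergent pairs had median signals of 3.75 (OPC) and 5.78 (OL) and a median ratio of 0.57, pairs with overlapping starts 3.37 and 5.63 with 0.58, and same-strand pairs 3.24 and 5.29 with 0.58. Calls in both libraries covered 41.6%, 37.5% and 39.5% of them. Among divergent pairs, those with starts under 100 bp apart had the lowest medians in the series of spacings, with 3.30 in OPC and 5.24 in OL over 71 regions, and 35.2% were called in OPC. Pairs 200 to 299 bp apart had 51.9% called in OPC over 104 regions, and pairs 300 to 499 bp apart had medians of 3.81 and 6.21 over 111. The 40 members whose second start was just inside the distance limit, within its last 100 bp, had medians of 3.38 and 5.40, and the 28 CpG island regions just outside it had 3.09 and 5.19.

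By OPC signal, the highest member was LOC100043236/BC052040, with 15.3 in OPC and 17.0 in OL. Fbxl20/LOC665606, where Fbxl20 encodes an F-box protein, had 12.9 and 14.3. C330011M18Rik/Rfx1, where Rfx1 encodes a winged-helix factor, had 13 in OPC and 20.2 in OL over mm9 chr8:86590044-86591066. Zfp142/Bcs1l, where Bcs1l is a chaperone of respiratory complex III, had 12.4 and 15.8 over chr1:74634167-74635315. Kif24/Nudt2, a kinesin that acts at centrioles and a nucleotide hydrolase, had 11.8 and 11.7 over chr4:41411700-41412563. These 5 regions were all called in both libraries. The Bcs1l and Nudt2 promoters shown above are those of the last 2 pairs.

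Further members among the 10 highest in OPC had similar levels in OPC and diverging ones in OL. Erh/Slc39a9, a splicing-related protein and a zinc transporter, had 11.1 in OPC and 18.2 in OL. Usp5/Cdca3, a deubiquitinase that takes apart free ubiquitin chains and a mitotic entry factor, had 10.6 and 19.7. Banf1/2010003J03Rik, a DNA-binding protein of the nuclear envelope and the gene now called Eif1ad, had 10.6 and 11.7. Ppme1/AU020772, a methylesterase of phosphatase 2A and the centriolar gene now called C2cd3, had 10.3 and 10.5.

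The highest OL average belonged to Arfip2/Fxc1, followed by C330011M18Rik/Rfx1 above (20.2) and then Nfkbib/Sirt2. Arfip2/Fxc1 joins a Rac and Arf binding protein to a subunit of the mitochondrial inner membrane import machinery, and its region at mm9 chr7:112788761-112789387 had 8.00 in OPC and 21.4 in OL, a ratio of 1.31. The highest single value in that region was 23 in OPC and 60 in OL. Nfkbib/Sirt2 joins an inhibitor of NF-kappa-B to the NAD-dependent deacetylase that is abundant in myelin, and its region at chr7:29551303-29551939 had 8.28 and 19.7, a ratio of 1.16, with highest values of 21 and 42. Both ratios stay above 0 under either rescaling. The middle of the Sirt2 region lay 181 bp upstream of the Sirt2 start and 78 bp upstream of the Nfkbib start.

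Among members with a mean signal above the median (4.65), the largest ratio was at 3930401K13Rik/Ubn1, the genes of Glyr1 and of a subunit of the HIRA histone chaperone, with 1.00 in OPC and 9.14 in OL (2.34). Ss18/LOC100040446, where Ss18 is a subunit of the BAF chromatin remodeller, had 1.5 and 10.3 (2.18). The cohesin loader gene 9130404D08Rik (Mau2) with Sf4 (Sugp1) had 1.65 and 8.00 (1.77). Pigf/Cript, a GPI anchor enzyme and a postsynaptic scaffold partner, had 2.06 and 7.78 (1.52). Rpl9/Lias, a ribosomal protein and lipoic acid synthase, had 2.47 and 8.24 (1.41). In the other 5, which are 2410004L22Rik/Myo9b, Arfip2/Fxc1, Bckdha/Exosc5, Mettl8/4833418A01Rik and Ppil3/Nif3l1, ratios ran from 1.25 to 1.33. Of these 10 regions all but Arfip2/Fxc1 were called in OL alone, and all 10 stay above 0 under either rescaling. A low OPC value makes the ratio lean on the pseudocount of 1, and 2 further members, Sfrs2/Mfsd11 (5.75 in OL) and Rab11fip2/LOC100043087 (3.18 in OL), were listed at 0 in OPC. No fold is given for these 2, which were chosen after their values were seen.

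On the deposited scale, ratios below 0 were smaller in size. With the median of all regions set to 0, 10 members had a ratio of 1 or more and 21 had a ratio of -1 or less. Fut9/LOC100040780, where Fut9 makes the Lewis X carbohydrate, had 5.71 in OPC and 3.91 in OL (-0.45). 4930509E16Rik/Rfxdc2, the latter now Rfx7, had 8.15 and 5.83 (-0.42), and 2310033E01Rik/Xrcc1, the latter a scaffold of single-strand break repair, had 5.69 and 4.0 (-0.42). Cc2d1a/4930432K21Rik had 6.43 and 4.67 (-0.39), and Cml1/Tprkb, whose promoter is shown above, had 9.17 and 6.87 (-0.37). Samd4b/Gmfg, Psenen/U2af1l4 and Klhl28/A430041B07Rik had ratios from -0.29 to -0.24.

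On the deposited scale only 2 members had a ratio of -1 or less, both below that mean signal and called in OPC alone. Spry4/9630014M24Rik, where Spry4 is a feedback inhibitor of receptor tyrosine kinase signalling, had 4.72 in OPC and 1.00 in OL (-1.52). Ccna1/4931419H13Rik, where Ccna1 is cyclin A1, had 4.55 and 1.73 (-1.02). Both were chosen after their values were seen, for their count.

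**Figure D4:**
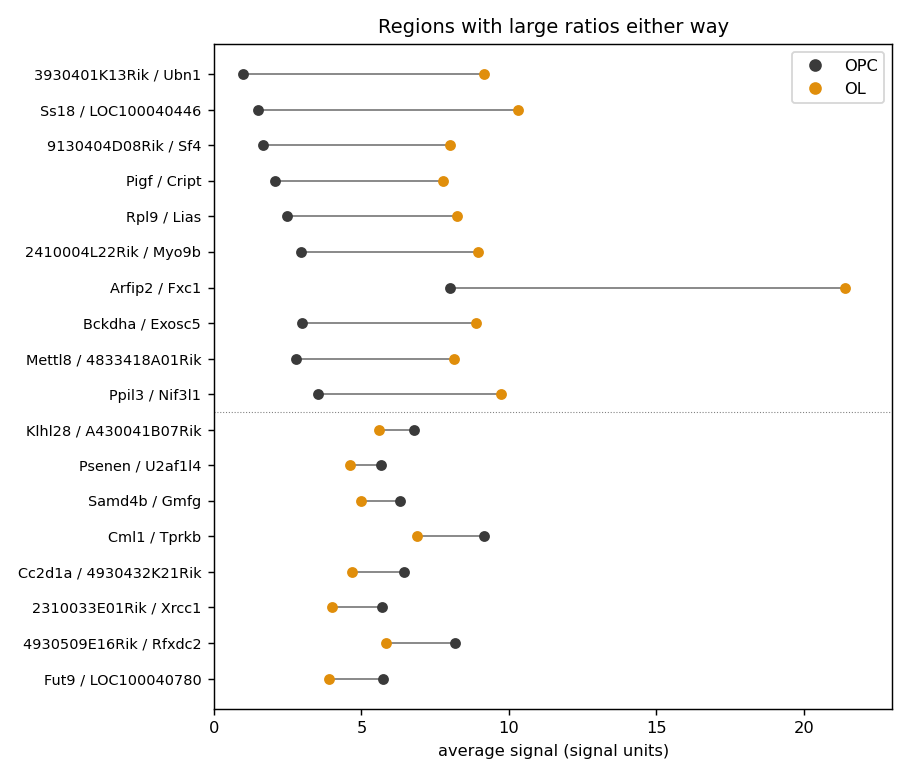
Average signal in OPC and OL (x axis, signal units) at the 10 members with the largest ratio of OL to OPC (upper rows) and at 8 of those with the largest ratio the other way (lower rows), all among members with a mean signal above 4.65. Lines join the 2 libraries of a region. On the deposited scale the upper pairs of points lie much farther apart than the lower ones.

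Divergent pairs long known from the literature were represented by 9 regions, and the authors called 4 of these regions in OPC, 8 in OL and 3 in both libraries. Over all members these calls covered 43.6%, 97.2% and 40.8%, and over all regions 38.6%, 85.3% and 23.8%. Hspd1/Hspe1, the mitochondrial chaperonins, had 3.90 in OPC and 8.93 in OL (1.02). Atm/Npat, the DNA damage kinase and the histone gene activator, had 2.75 and 6.66 (1.03), and Gart/Son, a purine synthesis enzyme and a nuclear speckle protein, had 2.08 and 5.87 (1.16). These 3 had ratios above 1, where 16.5% of all members and 37.5% of all regions had a ratio of 1 or more. Mrps12/Sars2 had 3.33 and 6.11, Hars/Hars2, the histidyl tRNA synthetases, had 3.68 and 5.82, and Ppat/Paics, both of purine synthesis and with overlapping starts in the deposited annotation, had 3.21 and 4.45. Mcm4/Prkdc, a replicative helicase subunit and the kinase of end joining, had 4.89 and 5.71. Tsc2/Nthl1, the mTORC1 inhibitor tuberin and a base excision glycosylase, was called in OPC alone with 4.41 and 3.19 (-0.37), and the Nthl1 sequence above is its promoter.

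Other genes were grouped into lists by role, and 267 of the 816 members held a gene of at least 1 list. Of the 17 lists, all had a median ratio above 0 on the deposited scale, 16 lay above the median of regions called in both libraries, and 1, cholesterol and lipid synthesis, lay above the median of all regions. None of their regions had a ratio of -1 or less, which only 2 of all 816 members (0.245%) and 7.03% of all regions had. Beside the counts of each list, 43.6% of all members were called in OPC, 97.2% in OL, and 16.5% had a ratio of 1 or more. Over all regions these shares were 38.6%, 85.3% and 37.5%. Whether any list departs from them was not tested. Mitochondrial ribosome, respiration and import genes had the most regions, 44, with Tom1l2, a membrane trafficking gene, counted among them by its name. Of these regions, 22 were called in OPC, all 44 in OL, and 8 had a ratio of 1 or more (median 0.59). After Arfip2/Fxc1 the strongest were Mrpl18/Tcp1 with 7.11 in OPC and 11.4 in OL, Atp5g2/Mirn688 with 6.28 and 11.3, and Sdhd/Timm8b, a subunit of succinate dehydrogenase beside an import chaperone, with 5.32 and 9.42.

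DNA repair and replication genes had 38 regions, 16 called in OPC, 37 in OL and 7 with a ratio of 1 or more (median 0.67). Rpa3, a subunit of the single-strand binding protein RPA, had 6.07 and 11.5, Palb2/Dctn5, with the partner of BRCA2, had 5.60 and 10.8, and Polk/Col4a3bp, with a translesion polymerase, had 3.26 and 8.00. Cell cycle and mitosis genes had 20 regions, 6 called in OPC and all 20 in OL, including 6 ratios of 1 or more (median 0.58). Beside Usp5/Cdca3 above, Cdca8, which encodes borealin of the chromosomal passenger complex, had 5.50 and 8.52. Replication-dependent histone genes had 6 regions, of which 5 were called in OPC and 4 in OL (median ratio 0.29). Hist2h2ac/Hist2h2be had 4.81 and 2.55 (-0.71), and Hist2h3b/Hist2h2bb had 4.88 and 7.32. Histone genes are near-identical copies, so how reads were placed among them is uncertain.

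Splicing and RNA processing genes had 31 regions, 16 called in OPC, 30 in OL and 7 with a ratio of 1 or more (median 0.59). Tfpt/Prpf31, with a factor of the U4/U6-U5 particle, had 3.93 and 10.0 (1.16), and Bckdha/Exosc5, with an exosome subunit, had 3.00 and 8.88 (1.30). Translation factors had 10 regions, 4 called in OPC, all in OL and none with a ratio of 1 or more (median 0.62), led by Eif3s2, a subunit of initiation factor eIF3, with 6.64 and 12.0. Cytosolic ribosomal proteins had 11 regions, 5 called in OPC and all in OL (median 0.56), led by Rpl15/Nkiras1 with 4.81 and 8.75. Aminoacyl tRNA synthetases had 7, of which 4 were called in OPC and all in OL (median 0.54), led by S100pbp/Yars with 4.80 and 8.91.

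Chromatin and histone enzymes had 26 regions, 10 called in OPC, 25 in OL and 5 with a ratio of 1 or more (median 0.54). Setdb2/Cab39l, with a SET domain protein, had 4.50 and 10.8 (1.10), Inoc1, the ATPase INO80, had 3.44 and 8.75 (1.14), and Ruvbl2/Gys1, with an ATPase of the same remodeller, had 6.80 and 8.63 (0.30). Genes with Zfp and Zbtb names had 24 regions, 11 called in OPC and all in OL (median 0.53), and Zfp219 had 5.0 and 10.97. Most are zinc finger genes, but Zbtb8os is counted by its name only. Proteasome and ubiquitin genes had 21 regions, 10 called in OPC and all in OL, with 1 ratio of 1 or more (median 0.69). Pcid2/Cul4a, with a cullin scaffold of ubiquitin ligases, had 7.35 and 13.2, and Trip12/Fbxo36 had 6.06 and 13.2 (1.01).

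Membrane trafficking genes had 36 regions, 19 called in OPC, all in OL and 7 with a ratio of 1 or more (median 0.49). Rab2b/Tox4, with a small GTPase, had 6.93 and 11.9, Ddx49/Cope, with a coat protein of COPI vesicles, had 5.65 and 11.5, and Arl4a had 4.0 and 9.82 (1.11). Cholesterol and lipid synthesis had 6 regions, 2 called in OPC and all in OL (median 0.77). At single-gene CpG island promoters the same list had 31 regions with a median of 0.47, below the 0.61 of that whole set. Mmab/Mvk, with mevalonate kinase, had 4.63 and 11.9 (1.20), Idi1, which isomerises isopentenyl diphosphate, had 5.86 and 10.4 (0.73), and Acsl3/Utp14b, with a fatty acid CoA ligase, had 1.92 and 6.48 (1.36).

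Genes of the lineage itself gave a small count. Of the oligodendrocyte lineage and myelin list, 2 genes were found at the 816 members, Sirt2 and Samd4b. The 4696 single-gene CpG island promoters held 32 regions of that list. Whether lineage genes are rarer at members was not tested. Samd4b/Gmfg, where Gmfg (glia maturation factor gamma) is not on the list, had 6.32 in OPC and 5.0 in OL (-0.29). The homeobox list also had 2 regions: 4933436C20Rik/Irx5 with 4.35 and 3.88, and Emx2os/Emx2, where Emx2os is the antisense transcript of Emx2, with 3.13 and 4.0.

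**Figure D5:**
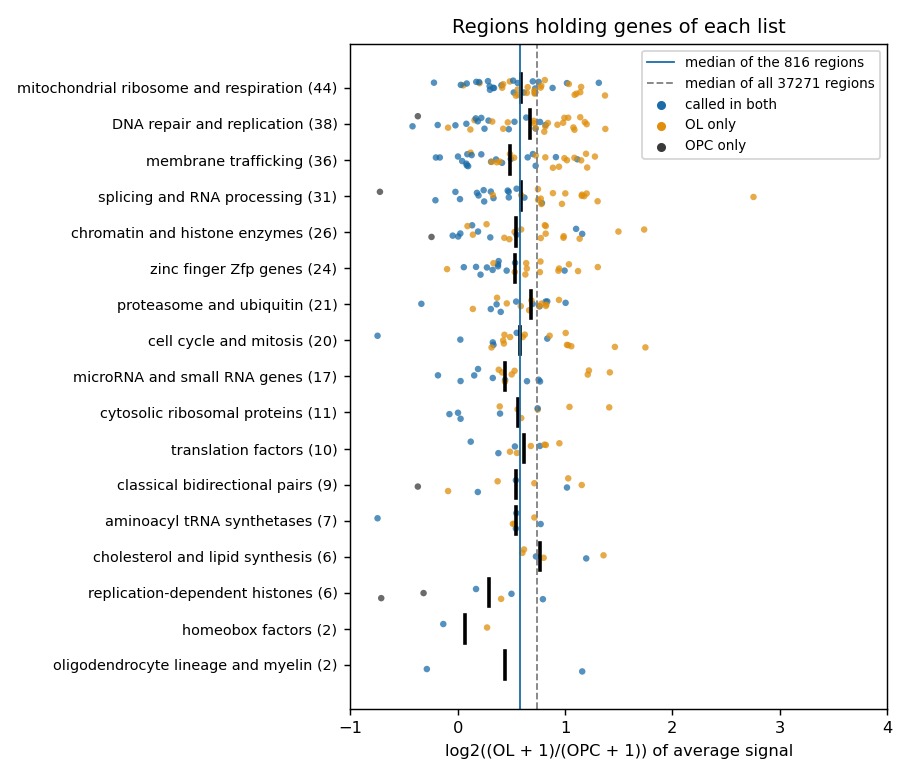
Log2 ratio of OL to OPC signal (x axis) at members holding a gene of each list (rows, number of regions in brackets), 1 point per region, coloured by call, with a black bar at the list median. The medians run from 0.07 to 0.77 on the deposited scale, and all but that of cholesterol and lipid synthesis lie left of the dashed line at the median of all regions.

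MicroRNA and small RNA genes were annotated at 17 members, 9 called in OPC and all in OL, and 3 had a ratio of 1 or more (median 0.44). The strongest after Atp5g2/Mirn688 were Snhg10/Glrx5, with a host gene of small nucleolar RNAs, at 3.41 and 9.29 (1.22) and Cdc91l1/Mirn695 at 6.18 and 8.75. The 2 genes of miR-219 that share a mature sequence were both among the members, and they are named here, outside the rule, because miR-219 is known to promote oligodendrocyte differentiation. Mirn219-1 (Mir219a-1), on the same strand as the Polycomb gene Ring1, had 3.24 in OPC and 3.83 in OL (0.19) and was called in both. Mirn219-2 (Mir219a-2), next to LOC100041002, had 1.44 and 5.53 (1.42) and was called in OL alone. The region's middle lay 510 bp downstream of the Mirn219-1 start and 847 bp upstream of the Mirn219-2 start, and neither region reached that start. The ratio of 0.19 falls below 0 under either rescaling, and that of 1.42 stays above 0. The RefSeq mature sequence, with its seed in capitals, is given on the next line.
mmu-miR-219a-5p: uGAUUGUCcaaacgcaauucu

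Three-gene regions made up 18 members, 9 of them called in OPC and 17 in OL, and had median signals of 3.57 and 5.72. All but Rpph1/Mirn685/Parp2 and Tbc1d17/Akt1s1/Mirn707 had a LOC number among their names, and Ppp2r3c/1110008L16Rik/LOC673593 was named at 2 regions. Over all members 43.6% were called in OPC and 97.2% in OL, and over all regions 38.6% and 85.3%. Rpph1/Mirn685/Parp2 joins the RNA of RNase P to a poly(ADP-ribose) polymerase of the DNA damage response and had 3.55 in OPC and 6.75 in OL. Rmrp/Mirn699/LOC622404, with the RNA of RNase MRP, had 5.15 and 4.42. EG546143/Ccpg1/LOC100041896 had the highest OL average of this group, with 5.0 and 10.6, and Tbc1d17/Akt1s1/Mirn707 was the longest member at 2107 bp, with 4.10 and 6.99.

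Some pairs held separate regions within the same promoter. In 35 gene sets the rule found at least 2 regions, 71 in all. Calls differed between the regions of a set in 18 of the 35, the sign of the ratio on the deposited scale differed in 8, and the ratio spanned a median of 0.50 and at least 1 in 6 sets. Over all 816 members 40.8% were called in both libraries, 56.4% in OL alone and 2.82% in OPC alone, and 90.7% had a ratio above 0. Whether regions of a set differ more or less than regions of different sets was not tested. At Hist1h2bh/Hist1h3f the region at mm9 chr13:23635191-23635552 had 5.0 in OPC and 3.82 in OL and was called in OPC alone, while the next, at chr13:23635798-23636501, had 6.07 and 11.3 and was called in both. Gstcd/Ints12 had 4.36 and 2.25 in its first region and 4.24 and 7.06 in its second, where Ints12 is a subunit of the Integrator complex. Polr3g/2900024O10Rik, with a subunit of RNA polymerase III, had 7.82 and 7.14 in its first region and 2.00 and 6.21 in its second. At Rev3l, the catalytic subunit of a translesion polymerase, all 3 regions had nearly the same ratio, 0.73 to 0.82.

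Many of these genes also had regions elsewhere. Of the 1577 gene names, 881 (55.9%) were also assigned a region more than 1000 bp from their start, beside 2593 of 4454 (58.2%) for the genes of single-gene CpG island promoters. For 1111 genes (70.5%) the assigned region with the highest signal in either library was the shared promoter. This count includes every gene with no other region, where nothing else could be higher, so it does not measure a preference for the shared promoter.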

How the data were processed

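Nkx2.2 ChIP-seq was carried out in mouse cells with 1 library each of OPC and OL; the input library was not analysed here. Per the submitters' processing notes, which give no roles, the build was mm9 and the tools included BWA and MACS 1.4.2. Per the file headers, the authors merged intervals called per library into regions and deposited for each the average and highest signal of each library, a call per library, and the gene starts and CpG islands assigned. How calls were thresholded, whether the input was used and how the libraries were scaled is not given in the sources used here; depth is unknown, and starts may count from 0 or 1.

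From the deposited signal, log2((OL + 1) / (OPC + 1)) was computed with a pseudocount of 1 and no filter on low signal, which understates ratios of weak regions. For shares, 95% intervals are exact (Clopper-Pearson) and, like the order-statistic intervals of medians, express only counting error over regions. A gene's strand was the sign with which its deposited distance ran along the chromosome (8016 of the 8018 genes with several regions fell on a line within 4 bp), or RefSeq's; both were known for 702 member genes and agreed for 701. The strand code and intervals were tested on simulated data. Motifs were searched as letters on both strands of RefSeq promoters (GRCm38.p6), matched by symbol.

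The regions, the 17 gene lists and the tests were chosen with earlier results of these data known. Named regions are the 10 highest in each library, the 10 largest ratios each way above the members' median mean signal, the 4 highest of each list, the classical pairs, and regions with 3 starts, from which examples are given; other regions named were chosen after their values were seen. A few regions that these rules name are not reported here. A name pattern that took a protein gene, Rnuxa, for a small RNA gene was corrected after its values were seen. Zbtb8os and Tom1l2, which do not have the role of their lists, were left in. Alternatives changed the distance to starts, the naming and coverage of starts, the call threshold, the pseudocount, the signal measure, a low-signal filter and the scaling. Python 3.11.15, pandas 2.3.3, numpy 2.4.6, scipy 1.17.1 and matplotlib 3.10.9 were used.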

Additional observations from a re-analysis of the deposited data

How the results depend on the processing

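No paired analysis was possible because each state had 1 library, and none could be left out. Counting a call only where the region's highest signal reached the median of called regions (11 in OPC, 12 in OL) left OPC calls at 24.0% of members, OL calls at 57.2% and both at 20.1%. Members whose region covered at least 2 starts were called in OPC in 47.4% and in both in 45.1%. The median log2 ratio was 0.70 with a pseudocount of 0.1, 0.33 with 5, 0.73 from the highest signal, 0.33 with the median of regions called in both set to 0, and it reversed to -0.16 with the median of all regions set to 0. Ratios of 1 or more, 135 of 816 as reported, numbered 86 of the 536 members whose region covered at least 2 starts. They numbered 62 of the 404 members with at least 2 names that were not placeholders. Over the 816 members they numbered 222 and 4 with pseudocounts of 0.1 and 5, and 291 from the highest signal. Under the 2 scalings, in the order above, they numbered 44 and 10. Ratios of -1 or less, 2 of 816 as reported, numbered 1 with starts within 500 bp and 4 with starts within 2000 bp. They numbered 0 of the same 404 members, and 1 of the 651 with at least 2 RefSeq genes, an alternative added after seeing the data. Over the 816 members they numbered 4 and 0 with pseudocounts of 0.1 and 5, 6 from the highest signal, and 4 and 21 under the scalings. Distances of 500 and 2000 bp gave 604 and 1006 regions, and with these and with the filter at a mean signal of 2 (815 regions) the shares called and the median ratio stayed within the intervals of the reported values. The cause of these shifts was not tested beyond the construction of each alternative.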
